A study of Mus musculus with 6 samples.

Results

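Noncanonical-type Wnts and their receptors are 9 genes on this array, the ligand genes Wnt4, Wnt5a, Wnt5b, Wnt9a and Wnt11 and the receptor genes Ror1, Ror2, Ryk and Ptk7. They were taken by name, and every probe set annotated to exactly 1 of these symbols was kept, which gave 20 probe sets of the 45037 non-control probe sets and 9 of the 18193 genes with such a probe set. Of the 20 probe sets 11 belong to ligands and 9 to receptors.

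RNA was measured in neighbouring pieces of midbrain from C57BL/6 mouse embryos of both sexes at embryonic day 10.5. The floor plate forms the ventral midline of the neural tube, and the ventral lateral region was dissected beside it without overlap. No allele or treatment is named for either group. Each region had 3 samples, each a pool from 6 embryos, and 5 ng of total RNA per sample was amplified and biotin-labelled for an Affymetrix array. Whether pools of the 2 regions came from the same embryos is not stated.

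Wnt proteins are secreted lipid-modified signals that bind Frizzled receptors. In the noncanonical branches the signal does not pass through beta-catenin. It runs instead through Dishevelled and the planar cell polarity proteins, or through calcium release, and single-pass receptors such as Ror1, Ror2, Ryk and Ptk7 take part. In the ventral midbrain Wnt5a is known for its roles in tissue shape and in the maturation of dopaminergic neurons, while Wnt4, Wnt9a and Wnt11 can act with or without beta-catenin depending on the cell.

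The deposited values are centred, so that each probe set has its median over the 6 arrays at 0. A value is therefore a log ratio that says how the samples differ, and neither the level of a gene nor whether it is expressed at all can be read from it. No source used here gives the log base or the sign; log2 was assumed, and a higher value was read as more RNA. Array medians ran from -0.0031 to 0.0045, and centred values carry no total count or signal over background, so the number of arrays limits the precision. Differences are floor plate minus ventral lateral, fitted with limma over all 45037 probe sets, and a probe set was called at a Benjamini-Hochberg adjusted p under 0.05. Errors are SE, the bracketing intervals are the unadjusted 95% intervals of limma, and the p-values take in no more than the spread among these 6 pools. In tissue pieces, fewer cells that express a gene and less RNA per cell cannot be told apart.

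The labelled regions were read on their own markers, in lists chosen with earlier results of these data known. Of 13 floor plate marker probe sets 10 were higher in floor plate and none lower, among them Corin (log2 difference 6.36), Lmx1b (3.72), Lmx1a (3.71) and Slit2 (3.70). The higher count was 7 to 10 with 1 sample left out. Neither probe set of the marker Shh was called (differences 1.76, adjusted p = 0.0734, and 0.16, adjusted p = 0.56). Of 14 ventral lateral progenitor probe sets 11 were lower and none higher, led by Dbx1 (-3.98), Pax6 (-3.92), Gli2 (-3.43) and Gli3 (-2.99). That lower count was 9 to 11 with 1 sample left out. The value given for each marker gene is that of its called probe set with the largest difference. Another called probe set of Lmx1b was at 0.74, and uncalled ones were at -0.29 and -0.11 for Pax6 and at 0.03 for Gli3. Ventral lateral replicate 2 lay closest to the floor plate samples, with a floor plate marker mean of -0.87 against -1.64 and -1.97 in replicates 1 and 3.

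Of the 5 ligand genes 4 (Wnt4, Wnt5a, Wnt5b and Wnt9a) were higher in floor plate than in ventral lateral samples, and no member was lower. The calls fell on 8 of the 11 ligand probe sets and on 0 of the 9 receptor probe sets (limma, Benjamini-Hochberg adjusted p under 0.05; at an unadjusted p under 0.05 the receptor count was also 0). Over all probe sets 2.7% were called higher and 2.01% lower, 4.71% in all, and of the 18193 genes 4.58% had at least 1 probe set called higher and 3.25% at least 1 called lower. On the mean of each gene's probe sets, 4 of the 9 genes were higher (4.55% of all genes) and 0 lower (3.58%). On the most variable probe set of each gene the counts were again 4 (4.49%) and 0 (3.31%). The median difference was 0.81 over the ligand probe sets and 9.7e-05 over the receptor probe sets, beside -0.0040 over all probe sets. For the 8 called probe sets the 3 floor plate values lay entirely above the 3 ventral lateral values, a separation in that direction that 11.5% of all probe sets showed (22.4% in either direction). In such a probe set the lowest floor plate and the highest ventral lateral value are equally far from 0, because the centring put the median between them.

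**Figure D1:**
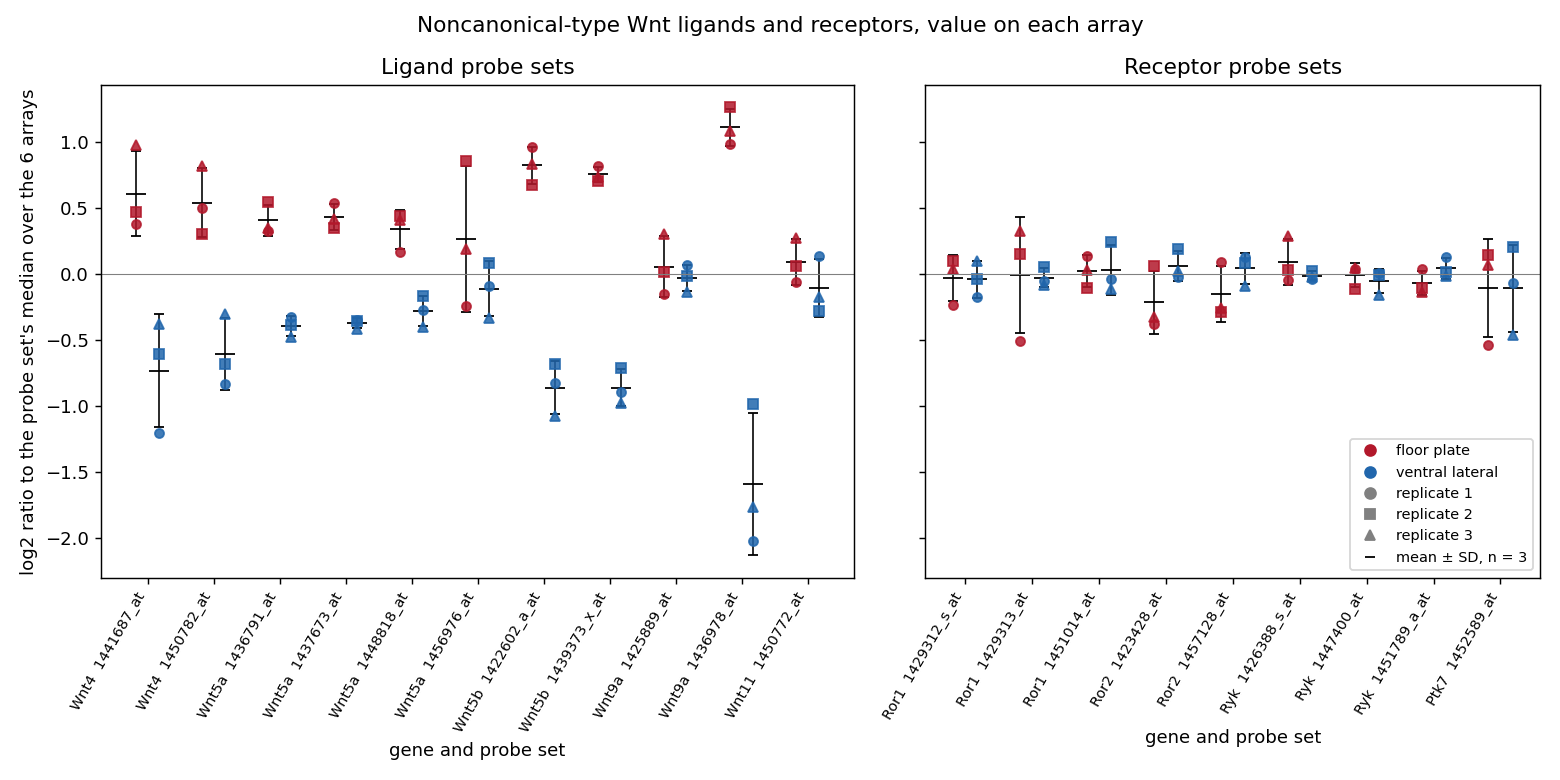
Log2 ratio of each member probe set to its own median on each of the 6 arrays (vertical axis), for the 11 ligand probe sets on the left and the 9 receptor probe sets on the right, with floor plate in red, ventral lateral in blue, a marker shape for each replicate and bars for mean ± SD (n = 3). The colours separate for 8 ligand probe sets and overlap for all 9 receptor probe sets.

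The sequence before the start of the gene is shown for 3 ligands, Wnt4 and Wnt9a, which were called, and Wnt11, which was not. RefSeq windows (GRCm38.p6) of the 250 bases before a start were found for 8 of the 9 members, 11 windows in all. Each sequence runs 5′ to 3′ along the gene and ends where the first listed model of the gene begins. Capitals mark a GC box (GGGCGG on either strand, the core bound by Sp-type factors) or, in Wnt11, a GC box followed directly by a Tcf/Lef-type motif (ATCAAAG).
Wnt4 (chr4:137277385-137277634, plus strand): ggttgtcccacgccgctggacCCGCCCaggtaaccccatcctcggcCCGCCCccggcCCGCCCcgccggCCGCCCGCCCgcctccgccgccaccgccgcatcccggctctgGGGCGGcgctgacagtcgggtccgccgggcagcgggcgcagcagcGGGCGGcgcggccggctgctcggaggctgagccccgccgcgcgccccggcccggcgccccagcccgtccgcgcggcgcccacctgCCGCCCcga
Wnt9a (chr11:59306680-59306848, plus strand): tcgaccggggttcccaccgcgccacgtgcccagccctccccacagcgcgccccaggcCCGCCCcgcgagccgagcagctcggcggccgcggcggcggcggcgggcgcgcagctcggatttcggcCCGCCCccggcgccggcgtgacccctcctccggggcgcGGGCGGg
Wnt11 (chr7:98834862-98835083, plus strand): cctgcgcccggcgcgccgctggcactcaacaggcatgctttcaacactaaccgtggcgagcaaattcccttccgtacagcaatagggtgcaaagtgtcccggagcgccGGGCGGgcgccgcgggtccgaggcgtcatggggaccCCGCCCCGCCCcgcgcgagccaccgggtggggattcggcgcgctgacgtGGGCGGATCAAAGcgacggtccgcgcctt

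The windows of Wnt4 and Wnt9a were rich in G and C, 85.2% and 84.4%. Of the 32851 windows in the table, whose median was 52.4%, 99.86% had less than Wnt4 and 99.78% less than Wnt9a. Wnt11 had 70.8%. A GC box was found in 9 of the 11 member windows and in 32.7% of all windows. The 11 member windows had 53.2% to 85.2% G and C, all above the median, and windows of like content were not compared. The Wnt4 window held 8 matches, of which 2 overlap. A further 4 motifs were searched on both strands. The Foxa-type TGTTTAC was in 0 of 11 member windows (3.17% of all windows) and the homeodomain-type TAATTA in 0 (4.84%). The Tcf/Lef-type ATCAAAG was in 2, Wnt11 and 1 of 3 windows of Wnt5b (3.21%), and the Gli-type CCACCCA in 1, Ror2 (8.11%). A match is a run of letters and not a measured binding site, and a missing match says only that these letters are not in this window.

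Wnt9a, a ligand known from joint and blood stem cell development, gave the highest difference of the members. On probe set 1436978_at the floor plate values were 0.99, 1.26 and 1.09 in replicates 1 to 3, and the ventral lateral values were -2.02, -0.99 and -1.77. The groups were far apart, and the spread lay mainly in the ventral lateral samples, where replicate 2 was closest to the floor plate. The means of 1.11 ± 0.14 and -1.59 ± 0.54 (SD, n = 3 each) differed by 2.70 (SE 0.25, adjusted p = 0.0012), a 6.51-fold difference with an interval of 4.36 to 9.71-fold. Only 0.135% of all probe sets had a larger difference in this direction. Without ventral lateral replicate 2 the difference was 3.0 (adjusted p = 0.00022). The other probe set of Wnt9a, 1425889_at, showed none of this. Its floor plate values were -0.15, 0.02 and 0.31 and its ventral lateral values 0.07, -0.02 and -0.13, which overlap. The difference was 0.08 with an interval of -0.23 to 0.40, entirely below the interval of 2.12 to 3.28 on the other probe set, so the call for Wnt9a rests on 1 of its 2 probe sets. The mean of both gave 1.39 (SE 0.15, adjusted p = 0.0012 over 18193 genes).

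In the RefSeq gene table (GRCm38.p6) the nearest protein-coding neighbour before Wnt9a is Wnt3a, a ligand that signals through beta-catenin. Its probe set had a difference of -0.05 (SE 0.15, adjusted p = 0.921), with floor plate values of -0.03, -0.22 and 0.27 and ventral lateral values of 0.03, 0.24 and -0.10. The groups overlapped.

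Wnt5b, the close relative of Wnt5a, was higher on both of its probe sets by nearly the same amount. On 1422602_a_at the floor plate values were 0.96, 0.68 and 0.83 and the ventral lateral values -0.82, -0.68 and -1.08. On 1439373_x_at they were 0.82, 0.71 and 0.74 against -0.89, -0.71 and -0.98. The 2 sets of values ran in parallel, with floor plate replicate 1 highest and ventral lateral replicate 3 lowest in both. The differences were 1.68 (SE 0.13, adjusted p = 0.00059) and 1.62 (SE 0.11, adjusted p = 0.00032), or 3.21-fold and 3.06-fold. The ending _x_at marks a probe set that may also bind other transcripts.

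Wnt4, a ligand best known from kidney and gonad development and from commissural axon guidance, was called on both of its probe sets. Probe set 1441687_at read 0.38, 0.47 and 0.98 in floor plate and -1.20, -0.61 and -0.38 in ventral lateral samples. Probe set 1450782_at read 0.50, 0.30 and 0.82 against -0.84, -0.68 and -0.30. The groups were separate on both, with floor plate replicate 3 highest and ventral lateral replicate 1 lowest each time, and the spread within a group was wider than for Wnt5b. The differences were 1.34 (SE 0.24, adjusted p = 0.0205) and 1.15 (SE 0.18, adjusted p = 0.0116), or 2.53-fold and 2.22-fold. Both calls were near the threshold when samples were dropped. Without floor plate replicate 1 the adjusted p rose to 0.0533 on 1441687_at and 0.0521 on 1450782_at, and without floor plate replicate 3 it was 0.0594 on the first.

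Wnt5a, the best known noncanonical ligand, was higher by less. Probe set 1437673_at read 0.54, 0.35 and 0.41 in floor plate and -0.35, -0.36 and -0.41 in ventral lateral samples. Probe set 1436791_at read 0.33, 0.55 and 0.35 against -0.33, -0.38 and -0.47. These values were tight, with an SD of 0.04 and 0.07 among ventral lateral samples. The differences were 0.81 (SE 0.10, adjusted p = 0.0034) and 0.80 (SE 0.10, adjusted p = 0.005), or 1.75-fold and 1.74-fold.

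The other 2 probe sets of Wnt5a were less firm. On 1448818_at the values were 0.17, 0.44 and 0.41 against -0.27, -0.17 and -0.40, a difference of 0.62 (SE 0.12, adjusted p = 0.0249). This call was lost without floor plate replicate 2 (adjusted p = 0.0796) or 3 (0.086) and without ventral lateral replicate 1 (0.0846) or 3 (0.0891). On 1456976_at floor plate replicate 2 stood high at 0.86 beside -0.24 and 0.19, and the ventral lateral values of -0.09, 0.09 and -0.33 overlapped with them. That difference, 0.38 with an interval of -0.23 to 0.99, was not called (adjusted p = 0.557), and its interval includes the values of the other 3.

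Wnt11, a ligand of convergent extension and of heart and kidney development, was the ligand gene without a call. Its only probe set, 1450772_at, read -0.06, 0.06 and 0.28 in floor plate and 0.14, -0.28 and -0.18 in ventral lateral samples, and the groups overlapped. The difference of 0.20 (SE 0.14, adjusted p = 0.582) had an interval of -0.14 to 0.53, so that anything from a 1.10-fold lower to a 1.45-fold higher value in floor plate lay within it.

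By size of the difference the order was Wnt9a on its called probe set, Wnt5b, Wnt4, Wnt5a and Wnt11. The interval of that Wnt9a probe set (2.12 to 3.28) lay above those of Wnt5b (1.37 to 1.99 and 1.37 to 1.86), while the other Wnt9a probe set (-0.23 to 0.40) lay below them. On the mean of each gene's probe sets the order of these genes turned, with Wnt5b at 1.65 (1.40 to 1.90) and Wnt9a at 1.39 (1.05 to 1.73), and those intervals overlapped. The intervals of Wnt4 (0.78 to 1.90 and 0.73 to 1.57) overlapped those of Wnt5b above and that of Wnt5a below (0.56 to 1.04 on 1436791_at), and differences between genes were not tested. These are orders of a difference, not of level, and probe sets can differ in how much of a true difference they show.

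**Figure D2:**
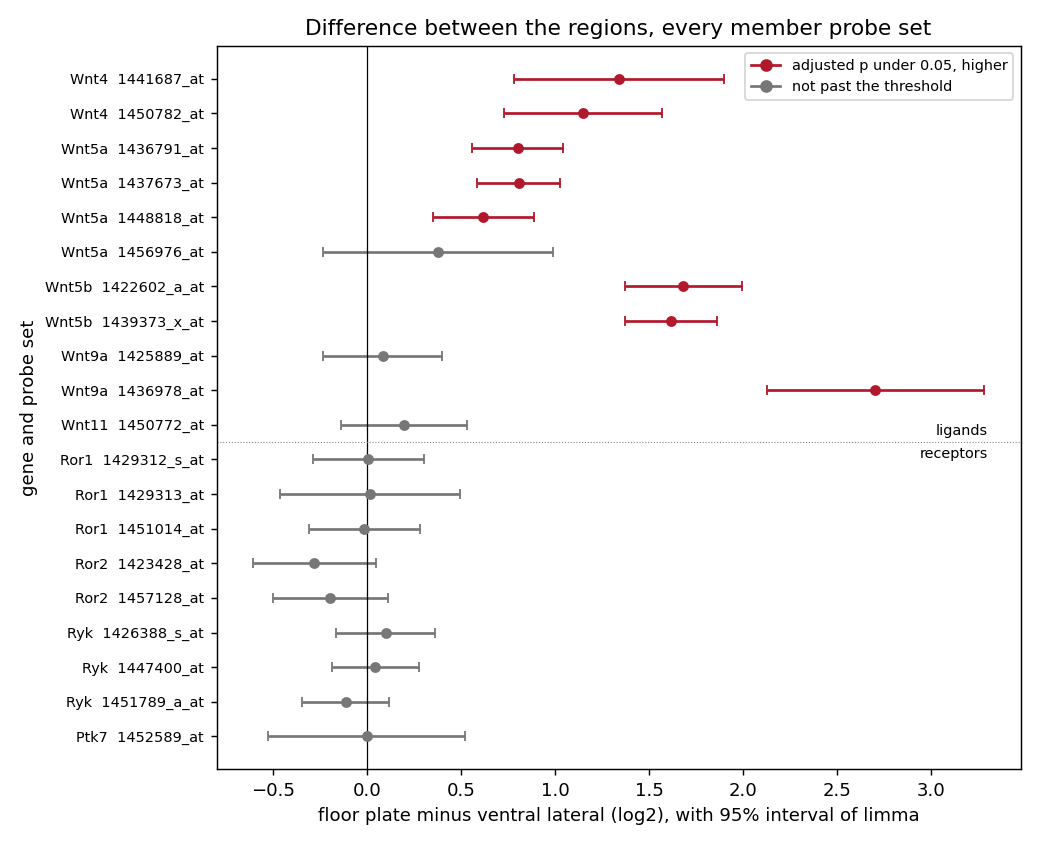
Floor plate minus ventral lateral difference on the log2 scale (horizontal axis) of the 20 member probe sets, points with unadjusted 95% intervals of limma, red where the adjusted p was under 0.05 and grey otherwise. The 8 called ligand probe sets lie between 0.62 and 2.70, and every receptor interval includes 0.

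The receptor genes gave no call in either direction. Their intervals describe these probe sets and do not limit the difference of the gene, since the Wnt9a probe sets disagreed and no signal over background is at hand. Ror1 encodes a receptor tyrosine kinase-like protein that binds Wnt5a. Its 3 probe sets had differences of 0.01 (1429312_s_at), 0.02 (1429313_at) and -0.01 (1451014_at), with adjusted p from 0.978 to 0.985. The values on 1429312_s_at were -0.23, 0.10 and 0.04 in floor plate and -0.18, -0.04 and 0.10 in ventral lateral samples. Floor plate replicate 1 was the lowest sample there and on 1429313_at (-0.51), but the highest of its group on 1451014_at (0.13).

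Ror2, the paralogue of Ror1 and the best studied Wnt5a co-receptor, had lower means in floor plate on both probe sets but did not pass the test. On 1423428_at the floor plate values were -0.38, 0.06 and -0.33 and the ventral lateral values -0.02, 0.19 and 0.02. On 1457128_at they were 0.09, -0.28 and -0.26 against 0.13, 0.09 and -0.09. A single floor plate sample lay among the ventral lateral values each time, replicate 2 on the first and replicate 1 on the second. The differences were -0.28 (SE 0.14, adjusted p = 0.39) and -0.19 (SE 0.13, adjusted p = 0.546). The mean of both was -0.24 with an interval of -0.44 to -0.03 and an adjusted p of 0.185 over genes.

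Ryk, an atypical kinase-like receptor that guides axons away from Wnt sources, had differences of 0.10 (1426388_s_at), 0.05 (1447400_at) and -0.11 (1451789_a_at), with adjusted p from 0.661 to 0.882. On 1451789_a_at the floor plate values were 0.04, -0.10 and -0.14 and the ventral lateral values 0.13, 0.01 and -0.01. The signs differed among its 3 probe sets, and none separated the regions.

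Ptk7, a kinase-dead receptor of planar cell polarity, had 1 probe set, 1452589_at, with the widest spread of the receptors by SE. It read -0.53, 0.14 and 0.07 in floor plate and -0.07, 0.20 and -0.46 in ventral lateral samples, and each group had 1 low sample. The difference was 9.7e-05 (SE 0.23, adjusted p = 1.0). Over all 9 receptor probe sets the intervals reached from -0.60 to 0.52, or 1.52-fold lower to 1.44-fold higher in floor plate.

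Genes of the wider pathway were read from lists chosen by name, with earlier results of these data known. Their counts are a description and not an independent test. Genes of Wnt secretion and extracellular handling were the list with the most calls, 11 of 30 probe sets higher (36.7%, beside 2.7% of all probe sets) and 0 lower, with a median difference of 0.29. The calls came from 4 of its 14 genes. Cthrc1, a secreted glycoprotein that stabilises Wnt and Ror2 complexes, was 8.08-fold higher (log2 difference 3.01, SE 0.37, adjusted p = 0.0039). It read 0.97, 1.0 and 1.25 in floor plate and -2.36, -0.97 and -2.49 in ventral lateral samples, so ventral lateral replicate 2 was again the closest to the floor plate. Wls, the carrier that takes Wnt proteins to the cell surface, was called on 3 of 4 probe sets (differences 1.11 to 1.27), and the remaining one was at 0.10. Vldlr, a lipoprotein receptor, was called on 5 of 6 (up to 1.33), and the glypican gene Gpc6 on 2 of 5. Of the 5 called Vldlr probe sets 4 lost the call in 1 to 5 of the 6 fits without 1 sample (adjusted p of 0.0522 to 0.125), each of them without floor plate replicate 1. The probe set of Gpc6 with the larger difference (0.72) lost its call when any floor plate sample was left out, and also without ventral lateral replicate 1 (adjusted p of 0.0589 to 0.0755). The other called one lost it without ventral lateral replicate 2 (0.0502) or 3 (0.0508). The list's count was 6 without floor plate replicate 1 and 7 without floor plate replicate 2.

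**Figure D3:**
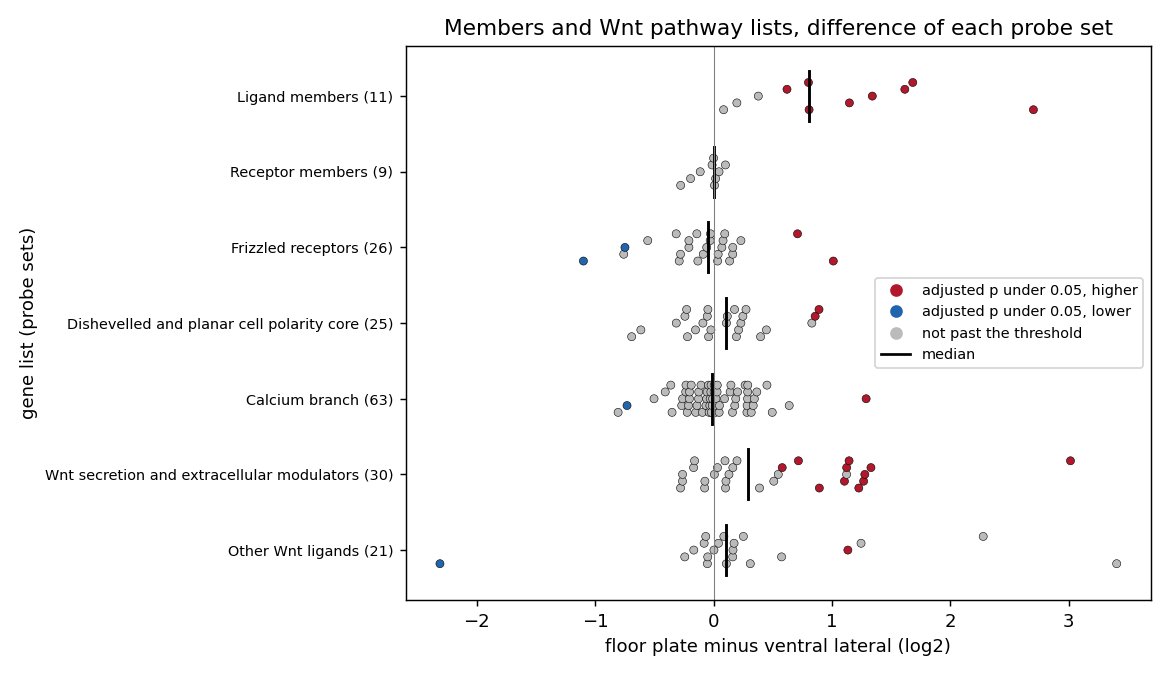
Floor plate minus ventral lateral difference on the log2 scale (horizontal axis) of every probe set in the ligand and receptor members and in 5 Wnt pathway lists (vertical axis, number of probe sets in brackets), red for called higher, blue for called lower, grey for neither and a black line for the median. The ligand members and the secretion list hold most of the red points, at 8 of 11 and 11 of 30.

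The Frizzled genes, the primary Wnt receptors, had 2 of 26 probe sets higher and 2 lower, with a median of -0.04. Both higher ones were of Fzd6, a planar cell polarity Frizzled (1.01 and 0.71, of 3 probe sets), and both lower ones of Fzd8 (-1.10 and -0.75, of 2). With 1 sample left out the higher count was 0 to 1 and never 2, and the lower count 1 to 2. The first Fzd6 probe set lost its call when any floor plate sample was left out, and also without ventral lateral replicate 3 (adjusted p of 0.074 to 0.0915). The other lost it in 5 of the 6 such fits, all but that without ventral lateral replicate 3 (0.0681 to 0.143), and with robust eBayes. The Fzd8 probe set at -0.75 lost its call when ventral lateral replicate 3 was left out (0.0513) or floor plate replicate 1 was (0.0543). Of 25 probe sets of Dishevelled and planar cell polarity core genes 2 were higher and 0 lower (median 0.11). These were 1 of 2 for the giant cadherin gene Fat4 (0.89) and 1 of 3 for Prickle1 (0.86). Fat4 lost its call without floor plate replicate 1 (adjusted p = 0.0598) or ventral lateral replicate 1 (0.0521). Prickle1 kept it only when ventral lateral replicate 2 was the sample left out (0.0559 to 0.137 in the other 5 fits), and lost it with array weights too.

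The calcium branch, in which Wnt signals raise calcium and activate its kinases and Nfat factors, had 1 of 63 probe sets higher and 1 lower (median -0.01), Nfatc2 at 1.29 on 1 of 6 and the kinase C gene Prkca at -0.73 on 1 of 3. Nfatc2 lost its call without floor plate replicate 1 (adjusted p = 0.0505), and Prkca in all fits but that without floor plate replicate 2 (0.0728 to 0.0898). These shares, 1.59% each way, stand beside 2.7% and 2.01% of all probe sets.

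The 14 other Wnt ligand genes had 1 of 21 probe sets higher and 1 lower, with a median of 0.11. Wnt7b was higher on 1 of 2 probe sets (1.13, adjusted p = 0.0197), a call lost without floor plate replicate 2 (0.0648) or 3 (0.0703) or ventral lateral replicate 1 (0.0792). Wnt7a was lower on 1 of 3 probe sets, at -0.90, -1.45 and -1.06 in floor plate against 1.31, 0.90 and 1.30 in ventral lateral samples (difference -2.31, SE 0.18, adjusted p = 0.0005). Its uncalled probe sets had the other sign, at 0.25 without overlap of the groups (adjusted p = 0.243) and at 0.11 (0.818). The uncalled Wnt1 probe set read 1.09, 0.99 and 0.91 against -5.10, -0.91 and -1.20, with no overlap. Its difference of 3.40 (interval 1.11 to 5.70, adjusted p = 0.119) was larger than that of any member probe set. A Wnt8b probe set, also separated and uncalled, was at 2.28 (adjusted p = 0.185). Both genes are named after their values were seen.

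The 5 genes nearest in pattern to the called Wnt9a probe set, by Euclidean distance of the 6 centred values, were Mboat1 (0.33), Mme (0.40), Dipk2a (0.42), Plxdc2 (0.52) and Hepacam2 (0.53). Their differences between the regions ran from 2.55 to 2.97. All 5 had ventral lateral replicate 2 as the highest ventral lateral sample, as Wnt9a did, which the choice by distance favours. With 6 arrays of 2 regions, such likeness is easy to reach, and it is given as a description.

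Markers of other cells that dissected pieces could hold were read beside the ligands. Of 30 mesenchyme probe sets 1 was higher and 0 lower in floor plate, and the list mean overlapped between the regions (floor plate samples -0.29 to 0.29, ventral lateral samples -0.29 to 0.23). The 1 was Twist1, a bHLH factor gene, at 0.80, 0.80 and 0.66 against -2.01, -0.66 and -1.39 (difference 2.11, adjusted p = 0.0072). None of 10 blood, 9 macrophage, 14 surface ectoderm or 1 notochord probe sets was called. Of the 3 notochord genes listed only 1, the keratin gene Krt19, was measured, so notochord content was hardly assessed. Its floor plate values lay above its ventral lateral values (difference 0.20, limma adjusted p = 0.528). Of 12 endothelial probe sets Cldn5 was lower (-0.68), a call lost when replicate 1 or replicate 3 of either region was left out (adjusted p 0.0559 to 0.0849). Neuron markers had 4 of 20 probe sets lower and 0 higher, from Ina (-1.05), Nefl (-0.68) and Stmn2 (-0.66), and the list mean was -0.36 to -0.06 across floor plate and 0.01 to 0.41 across ventral lateral samples. Nefl and Stmn2 each lost their call in 5 of the 6 fits without 1 sample (adjusted p of 0.0623 to 0.153), and Stmn2 also with arrays centred on their medians, array weights or robust eBayes. The part of neuron content in the ligand differences was not tested.

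**Figure D4:**
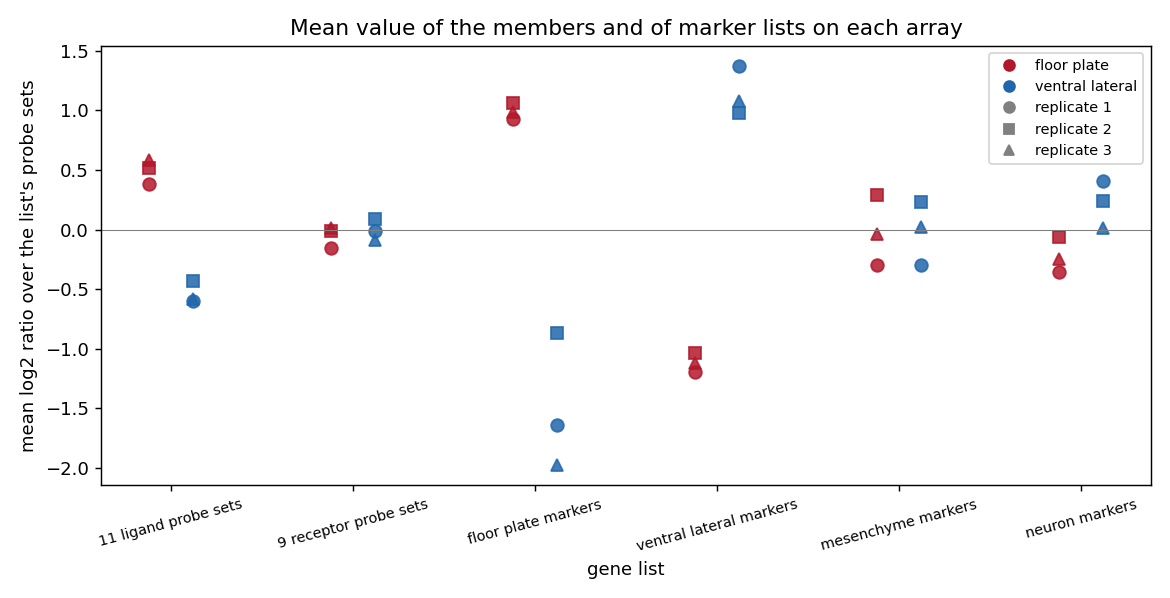
Mean log2 ratio over the probe sets of each list (vertical axis) on each of the 6 arrays, for the 11 ligand and 9 receptor probe sets and 4 marker lists, floor plate in red and ventral lateral in blue with a marker shape for each replicate. Ligand means lie at 0.38 to 0.58 for floor plate arrays and at -0.60 to -0.43 for the others, while receptor and mesenchyme means overlap between the regions.

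Sample by sample, the mean over the 11 ligand probe sets was 0.38, 0.52 and 0.58 in floor plate and -0.60, -0.43 and -0.58 in ventral lateral samples. The floor plate marker mean was 0.93, 1.06 and 0.98 against -1.64, -0.87 and -1.97. Ventral lateral replicate 2 was thus the highest of its group in both means. By probe set, it was the highest on both of Wnt5b, on Wnt9a 1436978_at and on Wnt5a 1448818_at and 1456976_at. It was not on either of Wnt4, on Wnt5a 1436791_at and 1437673_at, on Wnt9a 1425889_at or on Wnt11. Without that sample again 8 ligand probe sets were called. The 9 receptor probe sets averaged -0.15, -0.01 and 0.01 against -0.01, 0.09 and -0.09, with no gap between the regions.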

How the data were processed

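RNA of 6 pools was measured on Affymetrix mouse arrays. The submitters' processing notes name RMA; version, settings, log base and centring are not given in the sources used here. Values as deposited were read as log2; all 45101 probe sets (100%) had a median within 1e-06 of 0 across arrays. All 64 control probe sets were left out. Names came from GEO's platform annotation, in which 34945 probe sets have 1 symbol, 932 several and 9160 none; the Entrez identifiers of all 20 member probe sets matched the RefSeq table (GRCm38.p6) with unchanged symbols.

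limma 3.58.1 (R 4.3.3; lmFit, then eBayes) gave the differences on every non-control probe set, with no probe set chosen per gene and no filter, and the fit was tested on simulated data. Groups came from the sample titles, and the fit had no covariate. Deviations of same-numbered samples from their group means correlated at 0.01, 0.125 and 0.114 over probe sets, and the samples were not treated as pairs because not every value was over 0.1. The members and lists were chosen with earlier results of these data known. A further pathway list is not reported here. Genes named beside the members were up to 4 per list and direction among those called, by size of difference, and every called gene where a list had 3 or fewer. Shh, Wnt1 and Wnt8b were not called in the main fit and were named after their values were seen. Alternatives were 2 further normalizations, gene-level summaries, other sets of probe sets, robust eBayes, array weights (statmod 1.5.0), a replicate block, other thresholds and leaving out each sample. Python 3.11.15, pandas 2.3.3 and matplotlib 3.10.9 served for tables and plots.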

Additional observations from a re-analysis of the deposited data

How the results depend on the processing

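Each of the 20 member probe sets was read under those of the 17 alternatives that keep it, 306 values in all. Of these 296 stayed on the same side of the threshold and 10 lost a call. None gained a call, and no called difference changed sign. The thresholds of 0.01 and 0.1 were applied to the main fit, so no call could be lost at 0.1 or gained at 0.01. The 296 include the values of the 12 uncalled probe sets, whose adjusted p in the main fit was 0.39 or more. The 5 probe sets of Wnt9a (1436978_at), Wnt5b (both) and Wnt5a (1436791_at and 1437673_at) kept their call in every alternative run, and the 12 uncalled ones never gained one. The count of higher member probe sets was 8, and 6 to 8 with 1 sample left out; it was 5 at a threshold of 0.01, where both Wnt4 probe sets and Wnt5a 1448818_at dropped out. Counted over genes, 4 of 9 were higher when probe sets were averaged per gene (4.55% of all genes) and 4 of 9 on its most variable probe set (4.49%), which by construction favours probe sets that differ. The count of lower members was 0 in every alternative. All probe sets called in either direction numbered 2121, 957 at a threshold of 0.01 and 1263 to 1662 with 1 sample left out (1263 when floor plate replicate 1 was dropped, 1389 for floor plate replicate 3, 1362 for ventral lateral replicate 1 and 1375 for ventral lateral replicate 3), where fewer samples were fitted.

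With the replicate number as a block the member count was again 8, and 1904 probe sets were called in all. Among reported lists, probe sets of Cldn5, Stmn2, Nefl, Fzd6 (0.71) and Lmx1b (0.74) lost their call there, and Tek, Fzd9, Znrf3, Vldlr and 2 probe sets of Wnt8b gained one. Higher Frizzled probe sets thus went from 2 to 1, lower neuron ones from 4 to 2 and higher other Wnt ligands from 1 to 3. The Wnt8b differences were 2.28 (block adjusted p = 0.0011) and 1.25 (0.0243); Wnt8b is named after its values were seen. Replicates 2 and 3 deviated most nearly with their own number (correlations 0.125 and 0.114), but floor plate replicate 1 did so with ventral lateral replicate 3 (0.027, against 0.01 with its own). Mesenchyme marker means ran in the same order by number in both regions. They were -0.29, 0.29 and -0.04 in floor plate and -0.29, 0.23 and 0.02 in ventral lateral samples. Endothelium means (-0.19, 0.08 and -0.18 against -0.06, 0.17 and 0.12) did so too. So did surface ectoderm means (-0.17, -0.10 and 0.06 against -0.09, -0.05 and 0.28). Neuron marker means did not (-0.36, -0.06 and -0.24 against 0.41, 0.24 and 0.01). Macrophage means (0.12, -0.14 and 0.14 against 0.03, -0.003 and -0.05) and the 1 notochord probe set did not either. Blood means (-0.10, 0.18 and -0.14 against -0.10, 0.26 and 0.02) shared only replicate 2 as the highest. Whether the numbers pair the samples is not settled. Lower calcium branch probe sets went from 1 to 2 with quantile normalization or on probe sets with 1 symbol. On the most variable probe set of each gene the lower count of that list was also 2. The main limits are 3 pools per region, centred values without signal over background, and probe sets of Wnt9a that disagree.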
